A study of Rattus norvegicus with 4 samples.

Results

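Long acetylated domains of the rat oligodendrocyte genome were described before and after exposure to LPC (lysolecithin, a lipid that disrupts membranes and is injected to strip myelin in animal models). A domain was a chain of neighbouring H3K27Ac peaks. The vehicle and LPC H3K27Ac peak lists were pooled, and peaks at most 12.5 kb apart from edge to edge were joined. Chains spanning 30 kb or more with at least 5 peaks from each list were taken, which gave 425 of the 20610 pooled domains (2.06%).

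The study made 4 chromatin immunoprecipitation sequencing libraries from cultured rat brain oligodendrocytes, 1 for each pairing of an antibody (H3K27Ac or Olig2) with a condition (vehicle, or LPC for 6 h). All cultures had been derived from mixed glia by way of precursors grown with PDGF-AA and bFGF, and were then differentiated with thyroid hormone T3 and ciliary neurotrophic factor. The labels write the LPC dose as 12.5 mM, and whether that unit is right was not established, so the dose is uncertain. The labels state neither strain, animal age nor the number of animals pooled.

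Acetylation of lysine 27 on histone H3 marks active promoters and enhancers. It is written by the acetyltransferases p300 and CBP and read by bromodomain proteins. Runs of closely spaced acetylated elements often lie around genes that define a cell type, and ranking them by signal is the usual way to single out super-enhancers. The lists here hold no signal, so the domains were chosen by length and peak number and are not given that name. Olig2 is a basic helix-loop-helix transcription factor that binds E-box sequences and is needed to specify the oligodendrocyte lineage.

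Each list gives only the chromosome, start and end of its peaks. Coordinates are on the rat build rn4, counted from 1. Read depth is unknown, and with 1 library for each pairing no difference between conditions could be tested against replicate error. Intervals below are 95% intervals for counting error only. They treat neighbouring peaks as independent. More acetylation after LPC cannot be told apart from a deeper or better enriched LPC H3K27Ac library, and fewer bound Olig2 sites cannot be told apart from a poorer LPC Olig2 library. The rule used both H3K27Ac lists, so the H3K27Ac values of the domains are a description of what was chosen. The Olig2 lists had no part in the rule. Peaks were not tied to genes, so the labelled cell type could not be checked against its markers.

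The 425 domains spanned 19.5 Mb in sum. Their median span was 40.2 kb (quartiles 35.2 and 51.1 kb), and the longest reached 140 kb. They held 4485 of the 38902 vehicle H3K27Ac peaks (11.5%) and 4106 of the 38721 LPC peaks (10.6%). The median was 9 peaks per domain in each list, with up to 40 in vehicle and 35 in LPC. A further 52 domains were long enough but had too few peaks in a list: 23 in vehicle alone, 20 in LPC alone and 9 in both.

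At the length limit, the shortest domains taken were chr4:150994820-151024831 (30012 bp), chr8:119171648-119201727 (30080 bp) and chr5:126116007-126146255 (30249 bp). LPC over vehicle cover, the ratio of the bases under peaks, was 1.31, 1.37 and 1.05 in them. The longest left out for length, with at least 5 peaks in each list, were chr19:37332619-37362562 (29944 bp), chr5:148655188-148685106 (29919 bp) and chr13:48692556-48722470 (29915 bp). Their ratios were 1.24, 1.17 and 1.62. Values on both sides of the limit overlapped.

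The domains lay on all 20 autosomes and X. Chromosome 10 had the highest share of its pooled domains among them (45 of 1194, 3.77%) and X the lowest (3 of 526, 0.57%). Some stood close together: 62 of the 425 (14.6%) had another such domain within 100 kb, and 207 (48.7%) within 1000 kb. The median distance to the nearest was 1073 kb.

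H3K27Ac peaks covered slightly more of these domains in the LPC list than in the vehicle list. Vehicle peaks covered 5.24 Mb, or 26.9% of the summed span, and LPC peaks 5.99 Mb, or 30.7%. The summed ratio of LPC over vehicle cover was 1.14, against 1.22 in all other pooled domains. Per domain the median ratio was 1.14 (quartiles 1.04 and 1.28), the lowest 0.74 and the highest 2.78.

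LPC cover was the greater in 357 of 425 domains (84.0%, 80.2 to 87.4), where the share among all pooled domains with peaks of both lists was 73.2%. Among pooled domains under 30 kb with at least 5 peaks in each list the share was alike, 444 of 530 (83.8%, 80.4 to 86.8). A ratio of 1.5 or more was found in 38 of the 425 domains (8.94%), and in 23% of all pooled domains with both lists. A ratio as large in favour of vehicle was found in 0 of 425, and in 4.65% of all. A count of 0 allows a share of up to 0.706%, taken as 3 counts of 425 (exact interval up to 0.864%). Because a domain had to hold 5 peaks of each list, large ratios were less possible in the chosen domains than elsewhere, and nothing is read from these gaps.

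**Figure D1:**
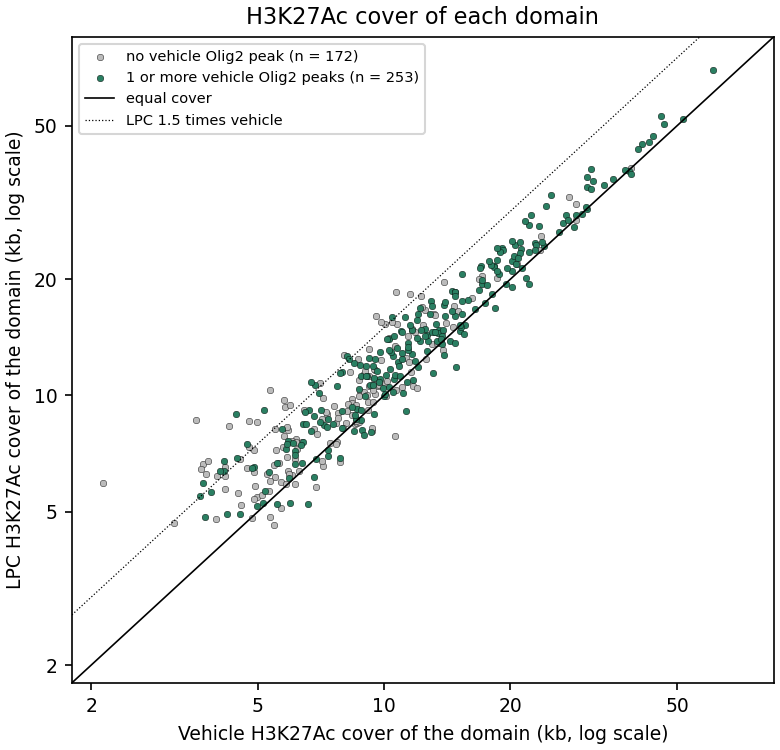
Vehicle (x) and LPC (y) H3K27Ac cover of each of the 425 domains in kb, both on log axes; each point is a domain, coloured by whether it held a vehicle Olig2 peak, and the lines mark equal cover and an LPC cover 1.5 times that of vehicle. Most points (357) lie above the line of equal cover, and the 38 at or above the dotted line have at most 11.5 kb of vehicle cover.

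The highest ratios came from thinly acetylated domains; vehicle cover is itself the denominator of the ratio, so the pair are not independent. In the 38 domains with a ratio of 1.5 or more, vehicle cover had a median of 4.76 kb and never exceeded 11.5 kb, while the median over all 425 was 9.95 kb. The highest ratio, 2.78, came from a 35.9 kb domain on chromosome 5 (152037975 to 152073905), where 5 vehicle peaks covered 2133 bp and 7 LPC peaks covered 5938 bp. The next were chr1:158346124-158388723 with a ratio of 2.42, chr3:86932139-86971404 with 2.02, chr8:126974687-127010792 with 1.95 and chr18:38734459-38799469 with 1.93. On chromosome 18 the LPC list held 16 peaks and the vehicle list 8. Of these 5 domains, only that on chromosome 3 held an Olig2 peak, which was absent from the LPC Olig2 list.

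In 68 domains LPC cover was lower than vehicle cover. The lowest ratio, 0.74, belonged to a 32.6 kb domain on chromosome 7 (138991150 to 139023750) with 14 vehicle and 8 LPC peaks. Vehicle peaks covered 32.6% of it and LPC peaks 24.1%. Next came chr7:43979072-44022093 and chr13:75156536-75192577 with 0.80 each, chr10:37601375-37632349 with 0.81 and chr18:52933749-52979269 with 0.84. On chromosome 13, 7 of 14 vehicle peaks had no LPC partner.

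The greater LPC cover came in equal measure from shared stretches and from added peaks, while lost peaks took part of it away. Peaks of either list that overlapped were merged into blocks, 4265 in all. Blocks held by both lists numbered 2892 (67.8%), blocks of LPC alone 795 (18.6%) and blocks of vehicle alone 578 (13.6%). Shared blocks were the longer ones, with a median of 1525 bp against 597 bp for LPC-only and 508 bp for vehicle-only blocks. LPC peaks covered 532 kb more than vehicle peaks within shared blocks. LPC-only blocks added another 532 kb and vehicle-only blocks took away 315 kb, which left a net excess of 749 kb.

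Within shared blocks the difference was small and not uniform. LPC covered more bases in 1994 of 2892 (68.9%), and the median ratio was 1.09 (quartiles 0.97 and 1.31). Base by base, 87.5% of the vehicle cover of the domains also lay under LPC peaks, and 76.5% of the LPC cover under vehicle peaks. In all other pooled domains these values were 83.5% and 68.2%. Those domains could hold peaks of a single list, with no shared base, while the rule demanded at least 5 peaks of each list. The gaps are thus partly set by the rule, and nothing is read from them.

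A greater LPC cover was often found with fewer LPC peaks, but seldom where the cover ratio was high. The vehicle list held more peaks than the LPC list in 237 domains (55.8%) and fewer in 128 (30.1%). In 183 domains (43.1%) LPC had fewer peaks but more cover. LPC peaks were the fewer in 3 of the 38 domains with a ratio of 1.5 or more (7.89%) and in 54 of the 68 with a ratio under 1 (79.4%). Of the LPC peaks in the domains, 20.8% (19.6 to 22.1) lay over 2 or more vehicle peaks, whereas 8.81% (7.99 to 9.67) of vehicle peaks lay over 2 or more LPC peaks. The counts of domains and the shares of peaks are given for the chosen domains only, so they are not read as a trait of them. Whether fewer LPC peaks went with more LPC cover in all other pooled domains was not tested. Whether the vehicle list was split more finely by the caller was not tested either.

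Peak turnover inside the domains was modest. A peak was called vehicle-only or LPC-only when no peak of the other H3K27Ac list overlapped it by 1 bp or more. Of the vehicle peaks in the domains 578 of 4485 (12.9%, 11.9 to 13.9) were vehicle-only, where the share in the whole list was 14.7%. Of the LPC peaks 795 of 4106 (19.4%, 18.2 to 20.6) were LPC-only, against 25.3% in the whole list. The rule demanded at least 5 peaks of each list in a domain, which limits turnover. The whole lists include pooled domains with peaks of a single list, where every peak is condition-only. Both gaps are thus partly set by the rule. Some condition-only peaks of the domains had a close neighbour in the other list. The domains were chosen as chains of closely spaced peaks, which favours near neighbours, and these shares are given for the domains only. Within 1 kb of an LPC peak lay 284 of the 578 vehicle-only peaks (49.1%), and within 1 kb of a vehicle peak lay 351 of the 795 LPC-only peaks (44.2%). Counting peaks within 1 kb as overlapping lowered the shares to 6.56% and 10.8%. Requiring 50% of each peak to overlap raised them to 45.7% and 40.7%, which put the vehicle share above the LPC share.

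Turnover fell steeply with peak length, and at the same length the domains lay close to all other pooled domains in some classes and apart from them in others. Vehicle peaks in the domains had a median of 791 bp, against 661 bp in all other pooled domains. LPC peaks had medians of 1026 and 804 bp. In the shortest class of vehicle peaks (171 to 459 bp) the vehicle-only share was 32.2% (28.7 to 35.9) in the domains and 32.1% (31.1 to 33.2) in all other pooled domains. In the longest class (1177 bp or more) it was 0.651% and 0.406%. For LPC peaks the shares in the shortest class (179 to 510 bp) were 51.6% (47.1 to 56.0) and 58.8% (57.7 to 59.9), and in the next (511 to 697 bp) 37.2% and 37.3%. In the middle class of vehicle peaks (589 to 788 bp) the domains had the higher share, 15.0% (12.6 to 17.5) against 11.6% (10.8 to 12.4).

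Shorter domains that met the same minimum of peaks had lower turnover. A set of 530 pooled domains had at least 5 peaks in each list but spanned under 30 kb (median 20.7 kb). Their vehicle-only share was 8.42% (7.52 to 9.40) and their LPC-only share 15.2% (14.0 to 16.5), both below the values in the long domains. In the shortest class of vehicle peaks they had 20.9% (17.7 to 24.5) vehicle-only, and in the shortest class of LPC peaks 39.6% (35.3 to 44.0) LPC-only. Both sets were chosen on these lists, and peaks in the shorter set were more tightly packed, covering 31.5% of the span in vehicle against 26.9%. The ratio of LPC over vehicle cover was alike in both sets, with medians of 1.17 and 1.14.

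**Figure D2:**
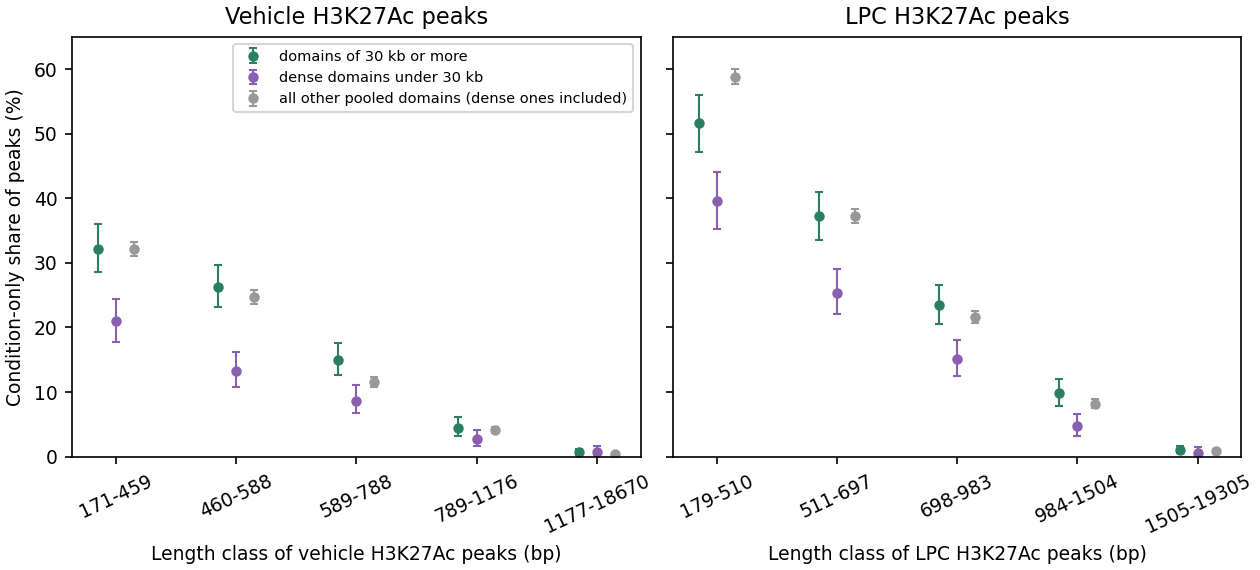
Share of vehicle (left) and LPC (right) H3K27Ac peaks with no overlapping peak in the other list, by length class of the whole list in bp; points are shares and bars 95% exact intervals, for the 425 domains, 530 shorter dense domains and all other pooled domains (which include the dense ones). The share falls from 32.2% to 0.651% of vehicle peaks and from 51.6% to 0.998% of LPC peaks across the classes in the 425 domains, and the shorter dense domains lie below them in the 4 shorter classes.

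Of the 425 domains, 35 (8.24%) held no condition-only H3K27Ac peak, while 230 (54.1%) held some of each list. A domain with many peaks has more chances to hold both kinds. These counts are given for the 425 domains only, so they are not read as a trait of them. LPC-only peaks outnumbered vehicle-only ones in 204 domains (48.0%), were fewer in 123 (28.9%) and equal in number in 98 (23.1%). Most vehicle-only peaks, 12, lay in the 119 kb domain on chromosome 1 (44903126 to 45022429), which also had 6 LPC-only peaks, and vehicle and LPC cover there were nearly equal (38.9 and 39.0 kb). The most LPC-only peaks, 10, were found both on chromosome 17 (36882931 to 37023249) and on chromosome 20 (43500598 to 43633985), beside 9 and 8 vehicle-only peaks. Chromosome 13 (30424375 to 30493257) had 8 LPC-only against 3 vehicle-only peaks, and a cover ratio of 1.59.

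Condition-only blocks were not gathered at the ends of the domains. LPC-only blocks made up 16.4% (13.9 to 19.0) of the 850 end blocks and 19.2% (17.9 to 20.6) of the 3415 inner blocks. For vehicle-only blocks these shares were 12.6% (10.4 to 15.0) and 13.8% (12.7 to 15.0). Both ends lay in shared blocks in 217 domains (51.1%).

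Most domains were held together by either list alone, more often by the LPC list. Joined at the same distance, vehicle peaks alone kept 297 domains (69.9%) in 1 piece and LPC peaks alone 339 (79.8%). Both did so in 240 domains (56.5%), LPC alone in 99 (23.3%), vehicle alone in 57 (13.4%) and neither in 29 (6.82%). The longest domain, 140 kb on chromosome 17, was such a composite, with 2 pieces in vehicle and 4 in LPC. Of the 66 domains of 60 kb or more, 33 were whole in vehicle and 44 in LPC.

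The longest peak of a domain was in many cases a different one in each list. It had a median length of 2.44 kb in vehicle and 2.88 kb in LPC, and made up a median of 24.6% and 25.4% of the domain's cover. The longest vehicle and longest LPC peaks overlapped in 269 of 425 domains (63.3%). On chromosome 20 the longest vehicle peak (43559923 to 43568309) and the longest LPC peak (43582079 to 43593844) lay in different stretches of the same domain.

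**Figure D3:**
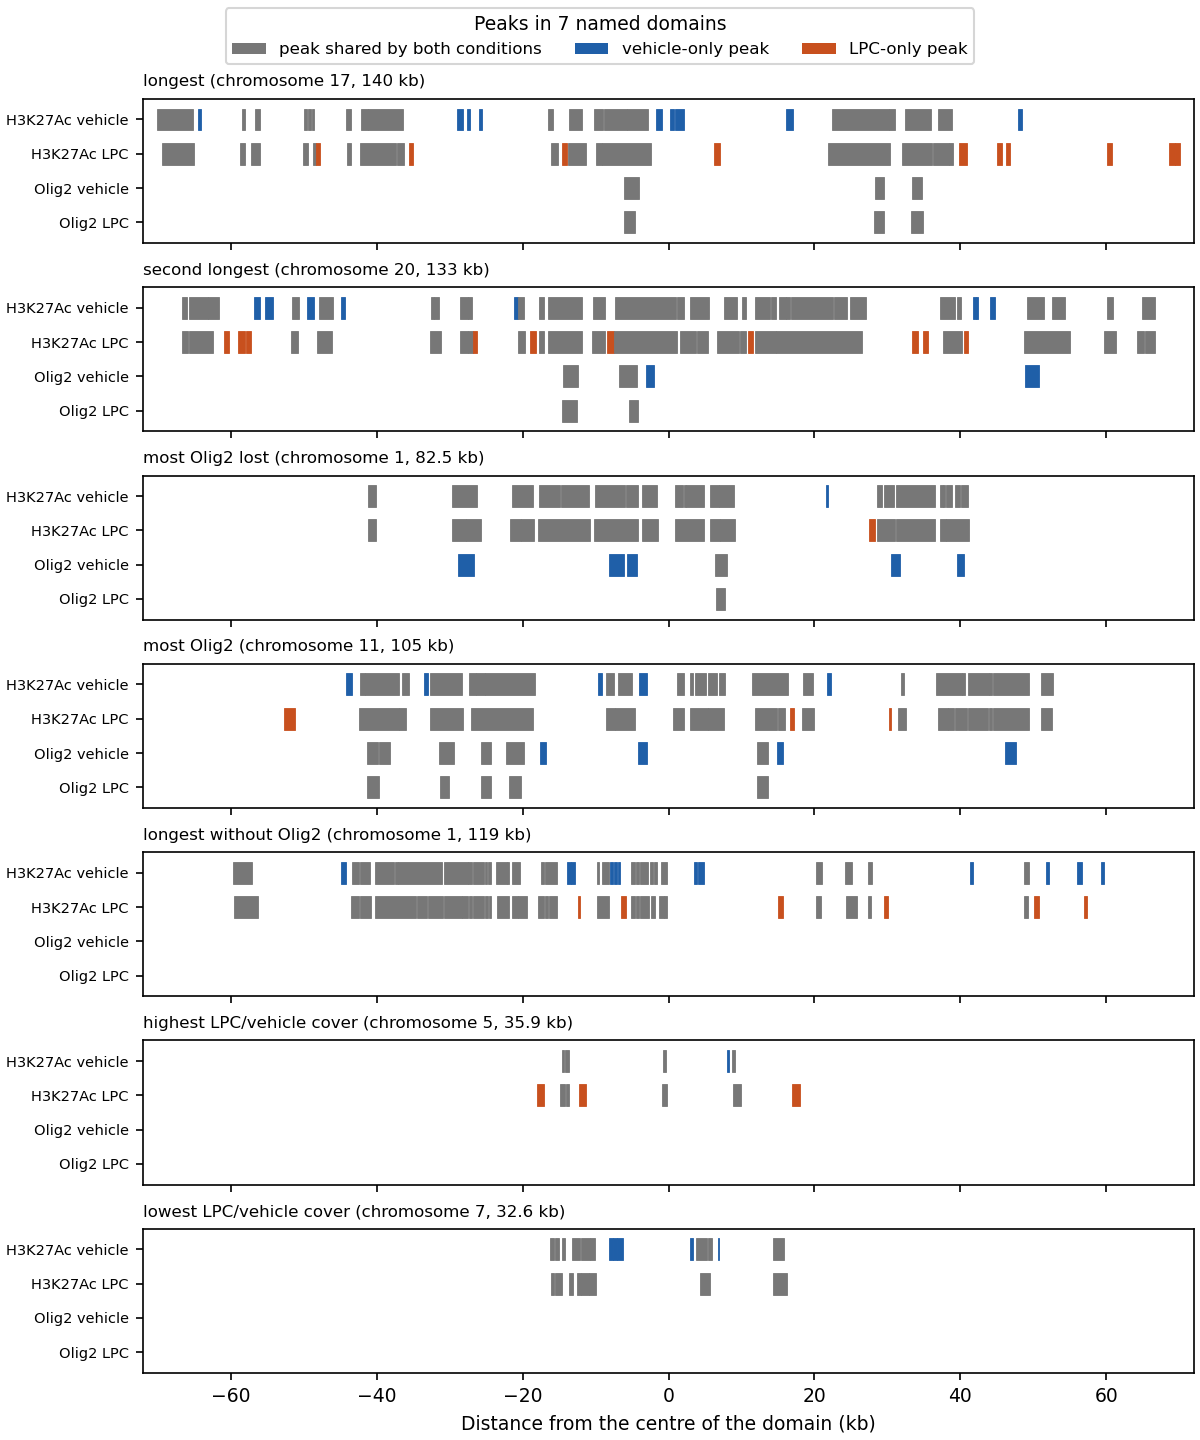
Peaks of all 4 lists in 7 domains picked by rule, drawn by distance from the domain's centre in kb; grey boxes are peaks shared by both conditions of the same antibody, blue boxes vehicle-only and orange boxes LPC-only peaks. Long grey stretches run through the larger domains, condition-only H3K27Ac peaks are short and lie between and beside them, and 5 of the 6 vehicle Olig2 peaks in the 82.5 kb domain on chromosome 1 have no LPC counterpart although both H3K27Ac lists cover that domain alike.

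Vehicle Olig2 peaks were found in more than 50% of the long domains, and LPC Olig2 peaks in fewer. The domains held 432 of the 4965 vehicle Olig2 peaks (8.70%) and 292 of the 3229 LPC Olig2 peaks (9.04%). A vehicle Olig2 peak lay in 253 domains (59.5%, 54.7 to 64.2): 141 held 1, 67 held 2, 34 held 3, 7 held 4 and 4 held 5 or more. The other 172 (40.5%) held none. Of the shorter dense domains 175 of 530 (33.0%, 29.0 to 37.2) held a vehicle Olig2 peak. In the LPC list 229 domains (53.9%) held no Olig2 peak.

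Per length of domain, Olig2 was sparser in the long domains than in all other pooled ones. The density was 22.2 vehicle Olig2 peaks per Mb (20.1 to 24.4) in the long domains, 32.6 (31.4 to 33.8) in all other pooled domains and 21.9 (19.2 to 24.9) in the shorter dense domains. Per Mb of vehicle H3K27Ac cover, the peaks lying on acetylation numbered 78.9 (71.4 to 86.9) and 87.1 (83.7 to 90.6) in the long and all other domains. In LPC these were 47.6 (42.2 to 53.5) and 47.0 (44.7 to 49.3) per Mb of LPC cover. The lower density in the long domains was thus much smaller per acetylated base in vehicle, and in LPC the intervals overlapped almost fully.

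Longer domains more often held Olig2. A vehicle Olig2 peak was present in 100 of 206 domains of 30 kb to under 40 kb (48.5%), 100 of 153 of 40 kb to under 60 kb (65.4%) and 53 of 66 of 60 kb or more (80.3%). Density rose little, from 19.7 (16.5 to 23.2) to 23.6 (20.2 to 27.5) and 23.7 (19.6 to 28.3) peaks per Mb. Domains with Olig2 had a median vehicle cover of 26.0% of their span and a longest vehicle peak of 2.78 kb, against 20.6% and 1.91 kb in domains without. LPC cover exceeded vehicle cover in 83.8% (78.7 to 88.1) of domains with and 84.3% (78.0 to 89.4) of domains without Olig2.

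Inside the domains nearly all Olig2 peaks lay on acetylation. A vehicle H3K27Ac peak lay under 413 of the 432 vehicle Olig2 peaks (95.6%, 93.2 to 97.3), where 59.5% of all vehicle Olig2 peaks did. That whole-list share includes 1730 peaks (34.8%) outside every pooled domain, which by definition lie on no H3K27Ac peak. In all other pooled domains the share was 90.7% (89.6 to 91.7). Those domains could lack vehicle peaks, while the rule demanded at least 5 in each long domain. Both gaps are thus partly set by how domains were built and chosen. The longest vehicle peak of a domain carried 133 (30.8%, 26.5 to 35.4) of the Olig2 peaks, and these longest peaks made up 24.1% of the vehicle cover. The 19 Olig2 peaks between vehicle H3K27Ac peaks lay a median of 2904 bp from the nearest. When the overlap had to reach 50% of both peaks, the share on acetylation was 50.2%.

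In the domains, acetylated peaks that carried Olig2 were rarely condition-only, and they were also longer. The shares were taken for peaks of the domains only, so they are not read as a trait of these domains. Of the 575 vehicle H3K27Ac peaks in the domains with a vehicle Olig2 peak 9 (1.57%, 0.718 to 2.95) were vehicle-only, against 569 of 3910 without Olig2 (14.6%, 13.5 to 15.7). Their median lengths were 1514 and 735 bp. Among peaks in the 3 shorter length classes 7 of 112 with Olig2 (6.25%) and 523 of 2124 without (24.6%) were vehicle-only, a difference of -18.4 percentage points (-22.1 to -12.0). In the class next to the longest (789 to 1176 bp) the difference was -4.01 points (-5.96 to 0.516). In the longest class it was -0.504 points (-1.29 to 0.831). Both of these intervals ran from negative to positive values. Across the 3 pooled classes the vehicle-only share in the domains fell from 32.2% to 15.0%. Length was thus not matched within that pool, and a difference at matched length was not tested there.

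The LPC list gave the same order, again for peaks of the domains only. LPC-only peaks were 8 of 346 with an LPC Olig2 peak (2.31%) and 787 of 3760 without (20.9%). In the 3 shorter classes they were 6 of 64 and 695 of 1912, a difference of -27.0 points (-32.4 to -17.1). In the class next to the longest (984 to 1504 bp) the difference was -8.19 points (-11.1 to 0.841). In the longest class it was -0.695 points (-1.60 to 1.32). Both of these intervals again ran from negative to positive values, and the 3 pooled classes were again not matched for length.

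**Figure D4:**
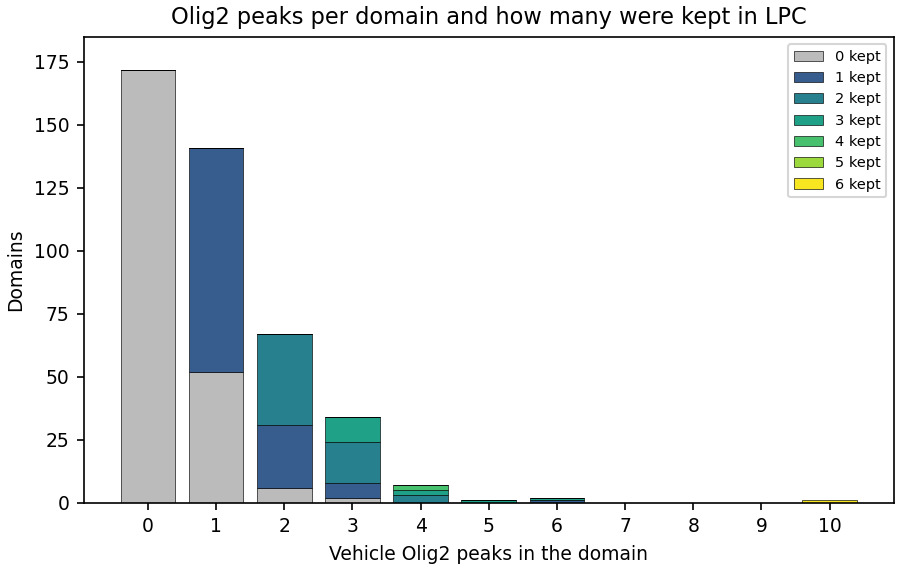
Number of domains (y) by vehicle Olig2 peaks in the domain (x), with colours for how many of those peaks overlapped an LPC Olig2 peak. Domains without Olig2 number 172, and among the 141 with 1 peak 89 kept it and 52 did not.

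About 2 in 3 Olig2 peaks of the domains were kept after LPC, a share close to that elsewhere. A vehicle Olig2 peak was called kept when an LPC Olig2 peak overlapped it by 1 bp or more, and lost otherwise. In the domains 287 of 432 were kept (66.4%, 61.8 to 70.9), where the share in the whole vehicle Olig2 list was 64%, and 145 were lost, where the share lost in the whole list was 36%. Outside the domains 2893 of 4533 were kept (63.8%), a difference of 2.61 points (-2.17 to 7.13). Against Olig2 peaks outside any pooled domain the difference was 3.20 points (-1.90 to 8.07), and against all other pooled domains 2.25 points (-2.65 to 6.90). These intervals leave room for a difference of several points either way.

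Olig2 peaks in the domains were longer than elsewhere, with a median of 1298 against 1042 bp, and long Olig2 peaks were kept more often. In the shortest 3rd of Olig2 peaks 48.6% were kept in the domains and 54.8% elsewhere (-6.12 points, -17.4 to 5.32). In the middle 3rd the values were 62.7% and 66.1%, and in the longest 3rd 73.4% and 71.3% (2.04 points, -4.22 to 7.69). No 3rd gave an interval without 0. Length was not fully matched within them, since the domains had the longer median in each. The medians were 860 against 816 bp, 1081 against 1055 bp and 1572.5 against 1452 bp.

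With the span limit raised to 50 kb, an alternative whose comparison with the rest of the list was added after seeing the data, 109 domains remained and 71.4% (64.3 to 77.9) of their vehicle Olig2 peaks were kept. That was 7.66 points (0.578 to 13.9) above the rest of the list. By span class the share was 64.5% (56.0 to 72.4) at 30 kb to under 40 kb, 67.1% (59.4 to 74.1) at 40 kb to under 60 kb and 67.8% (58.7 to 76.0) at 60 kb or more, with overlapping intervals.

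The share kept did not differ beyond its interval by where in the domain an Olig2 peak lay. On the longest vehicle peak it was 68.4% (59.8 to 76.2), on other vehicle peaks 66.4% (60.6 to 71.9) and between peaks 10 of 19 (52.6%, 28.9 to 75.6). The median place, on a scale from 0 at an end to 1 at the centre, was 0.47 for kept and 0.45 for lost peaks. In domains with a single vehicle Olig2 peak 63.1% (54.6 to 71.1) were kept, in those with 2 peaks 72.4% (64.0 to 79.8), and in those with 3 or more 64.3% (56.3 to 71.8).

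**Figure D5:**
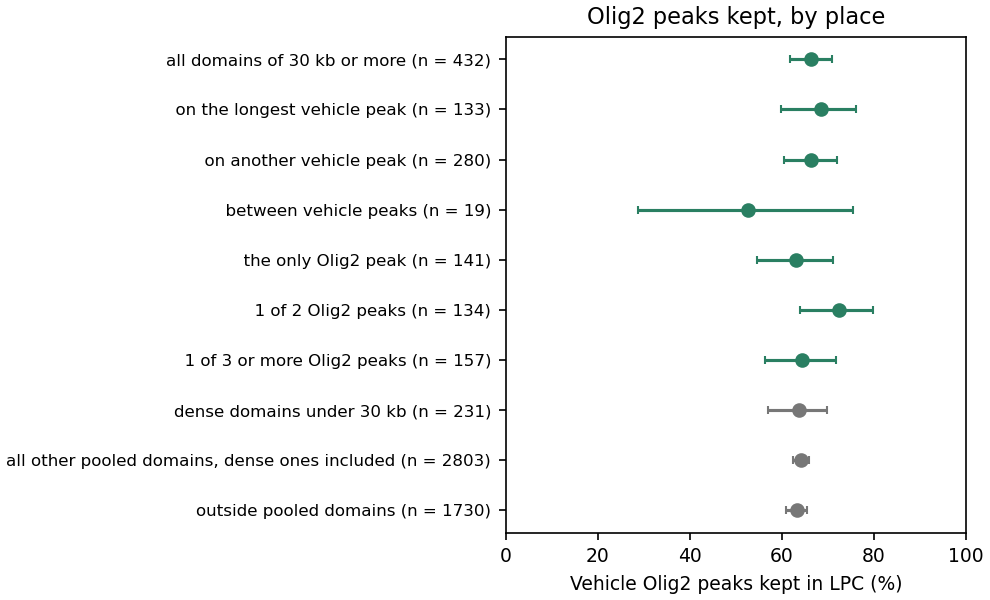
Share of vehicle Olig2 peaks that overlapped an LPC Olig2 peak (x, %), by place (rows); points are shares, bars 95% exact intervals, green for the 425 domains and their subsets and grey for other places. All intervals overlap that of the 425 domains (66.4%, 61.8 to 70.9), and the widest belongs to the 19 peaks between vehicle H3K27Ac peaks.

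Domains that lost their Olig2 peaks had about as much acetylated cover in LPC, relative to vehicle, as those that kept them. Of the 253 domains with vehicle Olig2, 137 (54.2%) kept every peak, 56 (22.1%) kept some and 60 (23.7%) kept none. A domain with a single vehicle Olig2 peak can only keep all or none. Such domains made up 89 of the 137 and 52 of the 60, so the groups also differ in Olig2 number. Their median spans were 44.8, 50.4 and 40.1 kb. The median ratio of LPC over vehicle H3K27Ac cover was 1.12, 1.14 and 1.14 in the groups that kept every peak, some and none. The quartiles were 1.03 and 1.27, 1.05 and 1.21, and 1.04 and 1.29. The vehicle-only share of their vehicle H3K27Ac peaks was 12.3% (10.7 to 14.0), 12.3% (10.1 to 14.9) and 14.1% (11.4 to 17.1).

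At single blocks and sites the ratios were likewise close. Shared blocks under kept Olig2 peaks alone (297) had a median LPC over vehicle ratio of 1.06, and those under lost peaks alone (135) of 1.07. Without a vehicle Olig2 peak (2450 blocks) it was 1.10. Blocks of a single list have no such ratio and were left out. Both lists held 297 of 311 blocks with kept peaks alone (95.5%, 92.6 to 97.5). With lost peaks alone they held 135 of 147 (91.8%, 86.2 to 95.7). In the 1 kb to each side of an Olig2 midpoint, vehicle H3K27Ac peaks covered a mean of 1708 bp at kept and 1575 bp at lost sites, and LPC peaks 1782 and 1644 bp. Both kinds of site thus had slightly more cover in the LPC list, and lost sites had less cover in both lists.

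The domain with most Olig2 peaks was the 105 kb domain on chromosome 11 (58680507 to 58785922), with 10 in vehicle and 5 in LPC. Its H3K27Ac cover was nearly equal, 51.6 kb in vehicle and 51.9 kb in LPC. The kept peaks lay at 58691898 to 58693437, 58693469 to 58695085, 58701686 to 58703829, 58707498 to 58708857, 58710990 to 58713423 and 58745379 to 58746837. A single LPC peak overlapped the first 2 of these. Of the 4 lost peaks, that at 58715639 to 58716361 lay on no H3K27Ac peak, that at 58729022 to 58730236 on a vehicle peak alone, and those at 58748030 to 58748966 and 58779289 to 58780784 on peaks of both lists.

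The domain that lost most was on chromosome 1 (44710967 to 44793468, 82.5 kb). Of its 6 vehicle Olig2 peaks, only that at 44758553 to 44760228 was kept. The 5 lost ones, among them 44723399 to 44725510 (2112 bp) and 44744065 to 44746135 (2071 bp), all lay on H3K27Ac peaks of both lists. H3K27Ac covered 40.4 kb of the domain in vehicle and 43.5 kb in LPC, with 1 vehicle-only and 1 LPC-only peak. Its neighbour 110 kb downstream is the 119 kb domain that had the most vehicle-only H3K27Ac peaks and held no Olig2 peak in either condition. Between them lay a chain of 42.4 kb (44808174 to 44850545) that had 7 vehicle but 4 LPC peaks and so was not taken.

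The other domains with 5 or more Olig2 peaks also kept part of them. On chromosome 5 (70874234 to 70973679) 3 of 6 were kept, and H3K27Ac cover went from 45.8 kb in vehicle to 52.8 kb in LPC. On chromosome 7 (137691215 to 137773013) 3 of 5 were kept, with a cover ratio of 1.21. Of the 7 domains with 4 vehicle Olig2 peaks, 2 kept all 4, 2 kept 3 and 3 kept 2. Those that kept all were chr11:31201613-31255412 and chr1:175599374-175677892, the latter chosen after its values were seen. The 133 kb domain on chromosome 20 was among those that kept 2, with 61.0 kb of cover in vehicle and 69.8 kb in LPC. All 3 peaks were lost on chromosome 6 (127481349 to 127525692) and chromosome 8 (52934993 to 52977538), where the cover ratios were 1.07 and 1.35. No domain with 5 or more vehicle Olig2 peaks kept all of them or lost all of them; there were 4 such domains. The longest domain of all, on chromosome 17, kept its 3 Olig2 peaks.

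LPC-only Olig2 peaks were rare in the domains, 5 of the 292 LPC Olig2 peaks there, and 1.49% of the whole LPC Olig2 list. They were chr11:31206183-31207664, chr13:98526755-98527800, chr3:8833358-8835044, chr8:113634117-113634819 and chr1:249376734-249378475. All 5 lay on H3K27Ac peaks of both lists. The domain on chromosome 11 (31201613 to 31255412) kept its 4 vehicle Olig2 peaks and added 1. The domain on chromosome 1 (249344457 to 249380444) lost its only vehicle Olig2 peak (249357326 to 249359369) and had an LPC-only peak in another place.

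The longest domains without an Olig2 peak in either list were the 119 kb domain on chromosome 1, a 94.1 kb domain on chromosome 5 (149531979 to 149626110) and an 84.6 kb domain on chromosome 1 (146976855 to 147061497). The second was thinly covered, 18.1% in vehicle and 21.7% in LPC. The third held 22 vehicle and 18 LPC peaks, of which 8 and 6 were condition-only.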

How the data were processed

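The members, and the lists of measures taken from them, were chosen with earlier results of these data known. Each library gave 1 deposited list of peaks with 3 columns. The submitters' processing notes name MACS 1.4.2 and the rat build rn4. Threshold, control library, aligner and depth were not given in the sources used here. Coordinates are printed 1-based on rn4. Intervals were joined and overlapped (at least 1 bp) in Python 3.11.15 (numpy 2.4.6, pandas 2.3.3), and 5 counts were compared with bedtools 2.31.1, with a difference of 0. In simulated lists of well separated peaks, the planted counts of domains, peaks, condition-only peaks and Olig2 peaks were all recovered. Cover, blocks and Olig2 peaks lying between H3K27Ac peaks were not checked in this way. Shares carry exact (Clopper-Pearson) intervals from SciPy 1.17.1, differences Newcombe intervals and densities exact Poisson intervals. H3K27Ac peaks were grouped into 5 length classes of each whole list. Named domains followed a fixed rule: extremes of span, cover ratio, Olig2 number and loss, and condition-only peaks, every domain with an LPC-only Olig2 peak (at most 5), and the nearest to the length limit. A genome or annotation of rn4 was not used here, so neither genes nor sequences are given.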

Additional observations from a re-analysis of the deposited data

How the results depend on the processing

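The choice of domains set how many there were and how densely Olig2 lay in them, and the overlap required set the turnover. Joining at 5 kb gave 40 domains with 31.8 vehicle Olig2 peaks per Mb, and joining at 25 kb gave 1303 with 12.9. A span of 50 kb or more gave 109 domains with 24.4, and H3K27Ac peaks at or above the median length gave 168 with 28.5. The share of domains with more LPC than vehicle cover was 87.5% at 5 kb. The share of vehicle Olig2 peaks kept ran from 62.8% (joining at 25 kb) to 71.4% (50 kb or more). Its difference from elsewhere, whose alternatives were added after seeing the data, was 7.66 points at 50 kb or more, with an interval above 0, and -1.61 points (-4.83 to 1.56) with joining at 25 kb. The share of vehicle Olig2 peaks on a vehicle H3K27Ac peak was 100% at 5 kb, 92.7% at 25 kb and 50.2% with a reciprocal overlap of 50%. The vehicle-only share was 10.4% with peaks at or above the median length, 45.7% with the reciprocal overlap and 6.56% with peaks within 1 kb counted as overlapping. The LPC-only share was 16.6% with peaks at or above the median length, 15.8% at 5 kb, 16.6% with peaks within 1 kb joined first, 20.7% at 50 kb or more, 40.7% with the reciprocal overlap and 10.8% within 1 kb. Autosomes alone, or at least 3 peaks in each list, left every value within its interval and the number of domains within 1.5 times. Length stood in for the score that the lists lack. No paired analysis was possible because each antibody and condition has 1 library, and no library could be left out.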
